A study of Mus musculus with 6 samples.

Results

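The 154 genes described here stood highest in interdigital tissue in both genotypes of an array study of the embryonic mouse autopod, the hand or foot plate. They were drawn from 16552 genes that the scanner software marked as well above background on all 6 arrays, of which they are 0.93%. A gene's log2 level is the log2 of its brightest probe's processed signal minus the 75th percentile of its array, so that 0 is that percentile and a difference of 1 is 2-fold. A gene was a member when its level in interdigital tissue exceeded the level in interzone and in growth plate by at least 1 among the controls, and again among the mutants. Gene names ending in Rik were left out, and 23 of those met every other criterion. The members were thus chosen by these 4 tissue differences, called margins below, which are given as a description with no test.

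The animals were C57BL/6 embryos at E14.5, and the design names 2 normal controls, labelled wild type, and 2 littermates with the genotype Tgfbr2Prx1KO. By convention that name means that Tgfbr2, which encodes a TGF-beta receptor, was deleted by a recombinase under Prx1 regulatory sequence, which acts in limb mesenchyme and its descendants, so that other cell types keep the receptor. Cells of interzone, growth plate and interdigital tissue were taken from sections by laser capture, and the cDNA was amplified by PCR before labelling with Cy3. Each tissue and genotype had 1 array, so the differences below have no replicates and no p-values. The labels do not say which embryo or how many cells lay behind an array. The title of the interdigital mutant spells the genotype Tbr2Prx1KO while its other labels give it in full. The description lines of 5 samples speak of irradiated human blood, and groups were taken from the titles.

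Interdigital tissue is the mesenchyme between the digit rays. It is known for retinoic acid and BMP signalling, for the cell death that separates the digits, and for the macrophages that clear the dead cells. It also carries blood vessels, which keep out of the cartilage condensations of the digits. Captured pieces of such tissue hold mesenchyme, endothelium and blood-derived cells together. On such material, fewer cells of a type and less RNA per cell cannot be told apart.

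The median processed signal was 466 on the interdigital control and 502 on the interdigital mutant array. It was 103 on the growth plate control array and 340 to 413 on the others. The share of spots well above background was lowest on the growth plate control array (72.3%). It was highest on the interdigital control (88.3%) and interdigital mutant (87.0%) arrays. Probes printed at least 5 times had a median standard deviation between spots of 0.0860 on the log2 scale, which covers spot noise only. The interdigital control array lay on slide 1 and the interdigital mutant array on slide 2. For this pair, slide and genotype cannot be told apart. All control arrays and the interzone mutant array lay on slide 1, and the growth plate mutant array on slide 2. Interdigital tissue and interzone of the mutants were thus on different slides, so slide and tissue cannot be told apart in that margin. The brightest probe of Tgfbr2 was at 2.49 in control and 1.91 in mutant interdigital tissue, at 2.42 and -2.42 in control interzone and growth plate and at 2.22 and 1.20 in the mutant ones. Whether this probe lies in the deleted stretch is not given, so it does not check the labels. Different probes of a gene often disagreed: of 5423 genes with 2 measured probes, the sign of interdigital minus interzone among the controls was shared in 56.1%, and in the other 3 comparisons in 56.0% to 58.3%.

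Among the controls alone 1214 genes stood highest in interdigital tissue by the margin, 7.33% of those measured, and among the mutants 984 did, 5.94%. The 154 members are 12.7% of the control list and 15.7% of the mutant list. The same rule turned to the other tissues gave 173 genes for interzone (1.05%) and 193 for growth plate (1.17%). The members' lowest margin ranged from 1.01 to 3.71 with a median of 1.36. It was at least 1.5 in 61 members, at least 2 in 29 and at least 3 in 5. The median margin was 2.08 over interzone and 2.76 over growth plate among the controls, and 2.21 and 2.17 among the mutants, where the medians over all genes were -0.05, -0.13, -0.12 and 0.02. Just inside the threshold lay Fcgr3, Nmnat3 and Sh3bgr, each with a lowest margin of 1.01. Just outside lay Senp1 (0.996), Nrep (0.994) and Prkar1b (0.990).

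**Figure D1:**
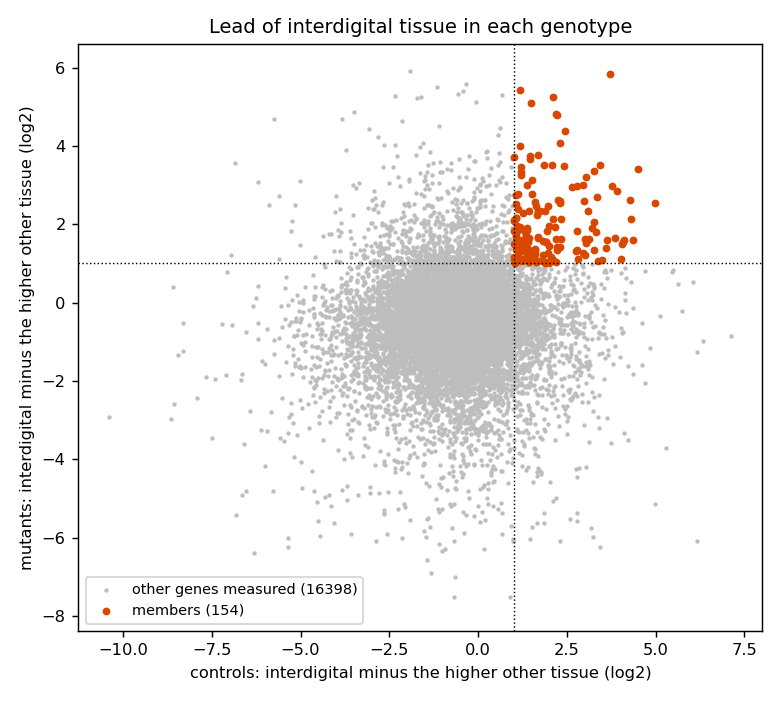
Each point is a gene, placed by the lead of interdigital tissue, its log2 level there minus the higher of the other tissues' levels, among the controls (horizontal axis) and among the mutants (vertical axis). Orange points are the 154 members, grey points the other measured genes, and dotted lines mark a lead of 1; most genes with a large lead in one genotype lie outside the upper right corner that holds the members.

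Most members had probe signals below the 75th percentile of the array. Probes differ in how brightly they report, so this describes signal and not expression between genes. The mean of their interdigital levels had a median of -1.20 and ranged from -4.66 to 2.30. Both interdigital levels lay below 0 in 111 members (72.1%), against 53.1% of all measured genes, and above 0 in 20 (12.99%), against 36.5%. In the interzone set 59.0% of genes had both of their own levels below 0, and in the growth plate set 26.4%. On at least 1 of the 4 other arrays, 35 members (22.7%) lay within 1 of the lowest level well above background, against 7.14% of all genes. A gene with a dim value there had to be called above background to be counted at all: 542 genes met the margins when that requirement was dropped.

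The clearest endothelial members were Emcn, the sialomucin endomucin of venous and capillary endothelium, and Robo4, a roundabout receptor of endothelial cells. The level of Emcn was 0.08 in control and -0.40 in mutant interdigital tissue, against -4.24 and -5.97 in control interzone and growth plate and -4.34 and -2.53 in the mutant ones. Both interdigital arrays stood above all 4 others, by a lead of 4.32 among the controls (19.9-fold) and 2.14 among the mutants (4.40-fold). Robo4 was at 1.02 and 0.87 in interdigital tissue, at -2.85 and -3.66 in control interzone and growth plate, and at -1.42 and -0.78 in the mutant ones. Its lead was 3.87 among the controls and 1.65 among the mutants. Cdh5, the vascular endothelial cadherin, was a member too, at 1.37 and 0.74, with the other arrays between -1.11 and -0.31. The lead of Cdh5 among the mutants was 1.04, close to the threshold, and its other measured probe was not highest in interdigital tissue (lowest margin -0.54). Lmo2, an adaptor of transcription factors in early blood and endothelial development, is in no list used here and stood at 1.34 and 1.23, with the other arrays between -1.07 and -0.05.

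The promoters of Emcn and Robo4 are shown because these members carry the endothelial result and each has a single start in the RefSeq table. They are the 250 bases before the start in GRCm38.p6, 5′ to 3′ on the gene's strand, with any of the motifs searched in capitals. Emcn lies at chr3:137340828-137341077 on the plus strand, with CAATAAA, a site of posterior Hox type, at -48 relative to the start. Robo4 lies at chr9:37401722-37401971 on the plus strand, with a reverse CCAAT box at -211.
Emcn: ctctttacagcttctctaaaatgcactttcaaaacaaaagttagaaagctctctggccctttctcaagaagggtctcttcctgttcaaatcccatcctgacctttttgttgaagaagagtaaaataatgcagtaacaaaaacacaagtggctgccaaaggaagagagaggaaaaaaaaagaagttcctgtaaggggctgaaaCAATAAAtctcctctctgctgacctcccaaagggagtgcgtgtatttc
Robo4: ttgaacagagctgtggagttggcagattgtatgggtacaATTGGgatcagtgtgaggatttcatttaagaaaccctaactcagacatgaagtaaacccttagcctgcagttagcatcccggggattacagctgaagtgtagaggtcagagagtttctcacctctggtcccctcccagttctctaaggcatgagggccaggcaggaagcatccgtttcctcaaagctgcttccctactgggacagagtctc

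The endothelium list as a whole led in interdigital tissue among the controls, with a median lead of 1.19 over its 33 measured genes. Among the mutants the median lead was -0.30, while all genes had -0.56 and -0.42. Over the scaling, background and probe settings it ranged from 0.07 to 1.28 among the controls, and among the mutants it was 0.06 with the mean over probes and negative otherwise. Of the 33, 3 (9.09%) were members, against 0.93% of all measured genes. Another 14 met the margin among the controls only, and 1, Gja4, among the mutants only. Over all measured genes, members included, 7.33% met it among the controls and 5.94% among the mutants. Pecam1, an adhesion molecule of endothelium, had a lead of 3.25 among the controls and -0.61 among the mutants, where the growth plate array was higher. The VEGF receptor gene Flt1 had leads of 2.90 and -1.56, and the receptor gene Notch4 2.12 and -5.07. The summed level of the list, in units of the array's 75th percentile, was 62.0 in control interdigital tissue against 32.8 in interzone and 29.97 in growth plate. In mutant interdigital tissue it was 39.7, between interzone at 49.6 and growth plate at 30.3. All 40 listed genes were well above background on both interdigital arrays.

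Of 31 measured macrophage and leukocyte markers, 5 were members (16.1%, against 0.93% of all measured genes): Spi1, Mpeg1, Folr2, Fcgr3 and Ccl9. Mpeg1 encodes the pore-forming protein perforin-2 of macrophages. It was at -0.25 in control and 0.41 in mutant interdigital tissue, against -1.83, -2.08, -0.75 and -2.08 in control interzone, control growth plate, mutant interzone and mutant growth plate. Folr2, a folate receptor of tissue macrophages, was at -0.31 and -0.95, with the other arrays between -2.63 and -1.70. Fcgr3, an activating receptor for immunoglobulin G, was at 0.74 and 0.44, and the nearest array was control growth plate at -0.27. Spi1, the transcription factor PU.1 of the myeloid lineage, was dim at -3.08 and -2.75, with the others between -5.11 and -4.42. The chemokine gene Ccl9 was at -1.40 and -3.97, with the others between -5.14 and -3.40, so its mutant interdigital value lay below the control growth plate value. With normexp background correction, an alternative estimate of each spot's background, Spi1 and Ccl9 were no longer highest (lowest margins -0.98 and -1.83). Mpeg1 kept 1.02 with it and Fcgr3 1.03. On the authors' deposited ratio table none of the 5 met the rule, and with the mean over probes Fcgr3 did not.

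Of these 5 genes, the promoters of Mpeg1 and Ccl9 could be shown with a single start, from the same table and in the same form. Mpeg1 lies at chr19:12460520-12460769 on the plus strand, with CATCTG, an E-box of Twist type, at -182 and a CCAAT box at -103. Ccl9 lies at chr11:83578637-83578886 on the minus strand, with TATA boxes at -224, -94 and -92, the last pair overlapping on opposite strands, and an AP-1 site at -53.
Mpeg1: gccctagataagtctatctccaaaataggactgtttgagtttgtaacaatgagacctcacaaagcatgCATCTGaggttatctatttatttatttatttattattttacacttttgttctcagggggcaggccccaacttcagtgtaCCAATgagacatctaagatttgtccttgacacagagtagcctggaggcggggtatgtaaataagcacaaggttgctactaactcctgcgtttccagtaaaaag
Ccl9: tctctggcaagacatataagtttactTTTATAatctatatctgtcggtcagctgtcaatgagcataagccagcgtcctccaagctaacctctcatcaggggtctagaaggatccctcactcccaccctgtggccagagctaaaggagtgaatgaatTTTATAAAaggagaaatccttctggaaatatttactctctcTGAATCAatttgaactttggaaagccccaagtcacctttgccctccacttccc

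Among the other macrophage markers, 8 met the margin among the controls only and 3 among the mutants only. The shares over all measured genes, members included, were 7.33% among the controls and 5.94% among the mutants. Tyrobp, an adaptor of activating receptors, had a lead of 5.75 among the controls and -0.22 among the mutants. The complement gene C1qa had 3.003 and -1.10. The integrin gene Itgam had 0.85 and 1.56. The list's median lead was 0.85 among the controls and -0.18 among the mutants, and among the controls it was -0.45 on the deposited ratio table, where all genes had -1.70. Its summed level did not single out interdigital tissue: among the controls it was 39.7 there, 45.7 in growth plate and 17.5 in interzone, and among the mutants it was 34.2, 30.4 and 48.4.

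**Figure D2:**
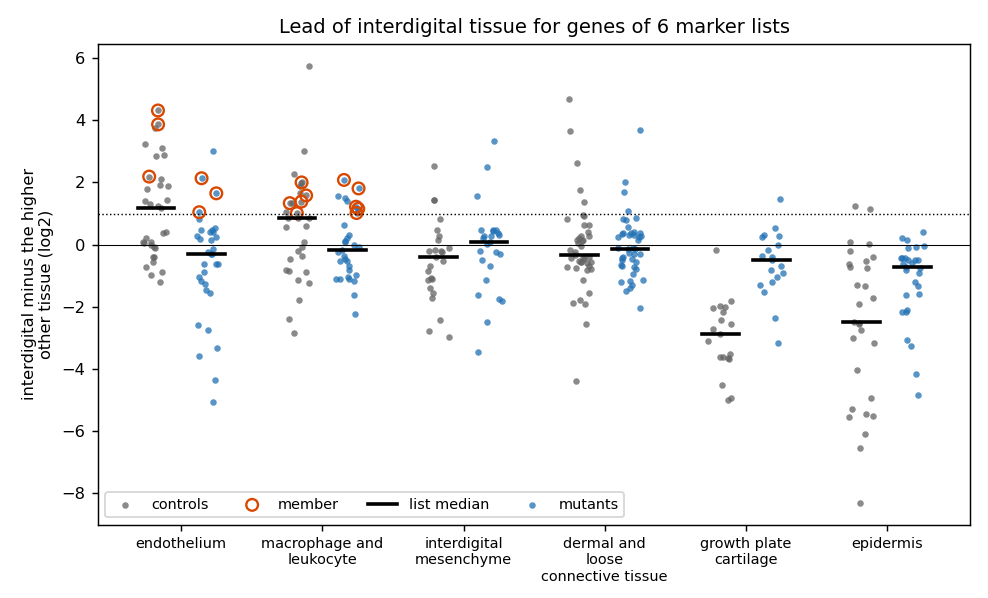
Points are measured genes of 6 marker lists, with the lead of interdigital tissue over the higher of the other tissues (log2) on the vertical axis, grey for controls and blue for mutants; black bars are list medians, orange rings mark members, and the dotted line is a lead of 1. Endothelium and macrophage medians are 1.19 and 0.85 among the controls and -0.30 and -0.18 among the mutants. Only these 2 of the 6 lists shown hold members, and some lists not shown hold members too.

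Of 25 measured genes known for marking the interdigital mesenchyme, 0 met the rule in both genotypes, 3 met the margin among the controls only and 3 among the mutants only. With 0.93% of all measured genes as members, a count of 0 in a list of this length is near the background share. The margin was met by 7.33% of all measured genes among the controls and 5.94% among the mutants, members included. Aldh1a2, the retinoic acid synthesis enzyme, had a level of -2.12 in control interdigital tissue against -3.56 in interzone and -3.66 in growth plate, but the mutant interzone array (-0.86) stood above mutant interdigital tissue (-2.60). The homeobox gene Dlx5 led by 2.55 among the controls and by 0.20 among the mutants. Rarb, a retinoic acid receptor, led by 0.48 and 0.30, and the transcription factor gene Twist1 by 0.29 and 0.29. Rarb, Dlx5 and Twist1 were the 3 of 25 (12.0%) highest by any margin in both genotypes, against 8.00% of all genes. The list's median lead was -0.41 among the controls and 0.10 among the mutants, the latter turning to -0.04 with normexp correction and -0.12 on the deposited ratio table, where all genes had -0.64 and -0.67. Its summed level ranged from 63.1 to 89.0 over the 6 arrays, with both interdigital arrays inside that range at 86.9 and 80.7.

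No member came from the lists for retinoic acid (19 measured), BMP and GDF (34), the TGF-beta pathway (21), Wnt (43), FGF (25), Notch (21), Hox genes (33), cell death (58) or collagens (31). None came from cartilage (19), interzone and joint (22), dermal and loose connective tissue (43), skeletal muscle (33), erythroid cells (13), nerve and Schwann cells (26) or epidermis (29). Against a background of 0.93%, these counts of 0 do not set the lists apart. In all, 17 members (11.04%) were in at least 1 of 43 lists, against 7.002% of all measured genes.

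The other list members came from lists with 1 or 2 members each. Some of these lists are short and reach shares like that of endothelium. Osteoblast and perichondrium held 1 of 11 measured genes (9.09%), cadherins and protocadherins 2 of 28 (7.14%) and hedgehog signalling 1 of 15 (6.67%). Ctsk, the collagen-degrading protease cathepsin K, was at 2.59 and 1.53 in interdigital tissue, at 0.70 and 1.11 in control interzone and growth plate, and at -3.58 and -3.77 in the mutant ones. Its lead was thus 1.48 among the controls and 5.11 among the mutants. Mmp15, a membrane-bound matrix metalloproteinase, was dim at -2.89 and -4.44, with the others between -6.86 and -5.22. The chemokine gene Cxcl12 was at 1.58 and 0.68, with the others between -0.38 and 0.35. Its other measured probe was not highest in interdigital tissue (lowest margin -0.03). The receptor gene of Cxcl12, Cxcr4, was no member, with leads of 0.07 and -0.57.

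Hhip, which encodes a protein that binds and restrains hedgehog ligands, was at 0.36 and -1.76. The control interzone array, at -1.12, lay between them, and control growth plate (-4.75), mutant interzone (-5.51) and mutant growth plate (-6.29) were far lower. Runx2, the osteoblast transcription factor gene, was at -0.62 and 0.39, with the others between -2.59 and -1.22. Its further measured probe gave a lowest margin of -1.94, so Runx2 rested on 1 probe. With normexp correction Mmp15 was no longer highest (lowest margin -2.14).

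Of 61 measured cell cycle genes 2 (3.28%) were members, against 0.93% of all measured genes. Cdc25a, a phosphatase that activates cyclin-dependent kinases, was at 0.70 and -0.05, with the others between -1.41 and -1.12. Hmmr, the hyaluronan-mediated motility receptor of the mitotic spindle, was at -1.54 and -1.70, with the others between -4.39 and -2.98. Pcdh17, a protocadherin, was at -0.02 and -1.24, with control interzone at -1.09, between those values, and control growth plate at -5.94, mutant interzone at -2.90 and mutant growth plate at -3.13 below both.

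The largest lowest margins belonged to genes outside the lists. Ndst3, an enzyme that modifies heparan sulfate chains, was at -1.64 in control and -0.37 in mutant interdigital tissue, against -6.28 and -5.35 in control interzone and growth plate and -6.20 and -6.87 in the mutant ones. Its lead was 13.1-fold among the controls and 56.9-fold among the mutants, and its lowest margin, 3.71, was the largest of the members. Of its other values, 3 of its 4 other values lay within 1 of the detection limit. Stag3, a cohesin subunit of meiosis, was at -0.22 and -0.69, with the others between -4.11 and -3.48. Sgtb, a co-chaperone, was at -0.39 and -1.03, with the others between -4.27 and -3.42.

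Scn2a, a voltage-gated sodium channel, was at -1.22 and -2.86, with the others between -6.30 and -5.00. The receptor and ligand genes in this group were Chrnb2, a nicotinic acetylcholine receptor subunit (lowest margin 2.70), Il1r2, the decoy receptor for interleukin 1 (2.65), Nxph1, a ligand of neurexins (2.60), and Nts, the precursor of neurotensin (2.42). The nerve and Schwann cell list had a summed level of 22.8 and 27.3 on the interdigital arrays and from 19.6 to 39.6 on the others, and its part in these values was not tested. Plekha8, a glycolipid transfer protein (2.80), Jam2, a junctional adhesion molecule (2.61), Pde4d, a cyclic AMP phosphodiesterase (2.46), and Gucy1b1, a subunit of the nitric oxide receptor (2.33), followed. The other measured probe of Gucy1b1 was not highest in interdigital tissue (lowest margin -0.29).

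Btk, a tyrosine kinase of B cells and myeloid cells (2.32), Wdfy4, which acts in antigen presentation by dendritic cells (2.30), Kcnip3, a calcium sensor (2.30), and Mief2, a mitochondrial fission factor (2.25), came next. Crispld2, a secreted protein (2.22), Prkce, a protein kinase C (2.15), Emcn (2.14) and Nrk, a kinase (2.11), completed the 20. Of these 20, 18 kept a lowest margin of at least 1 with quantile normalization, 17 on the authors' deposited ratio table and 6 with normexp correction. All 20 kept it with the 75th percentile taken over probes detected on all arrays. That choice and the deposited ratio table only shift each array by a constant. The 8 that were no longer highest with normexp were Chrnb2, Jam2, Mief2, Nrk, Nxph1, Plekha8, Scn2a and Wdfy4. The 6 that kept the margin with it were Ndst3, Pde4d, Prkce, Emcn, Crispld2 and Kcnip3.

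The brightest members, by their mean interdigital level, were led by Ddx3x, an RNA helicase, at 1.89 and 2.72, with the others between -0.65 and 1.58. Other measured probes of Ddx3x gave lowest margins of -1.62 and 0.65. Ctsk came next. Msrb3, a methionine sulfoxide reductase, was at 1.99 and 1.73, against -2.11 and -4.32 in control interzone and growth plate and -2.82 and 0.13 in the mutant ones. Kctd12, an auxiliary subunit of GABA-B receptors, was at 2.95 and 0.47, against -1.84 and -0.66 and, in the mutants, -1.39 and -0.92. Srpx, a sushi-repeat protein, was at 2.05 and 1.26, with control interzone at -0.06 and the other arrays between -6.23 and -4.01. Arhgap28 was at 1.301 and 1.67, and its low value of -4.56 in control growth plate stood apart from the others, between -0.16 and 0.23.

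Tmeff1, a transmembrane protein with follistatin-like domains, was at 1.36 and 1.54, with control interzone at -0.08, mutant growth plate at -0.11, and lower values in mutant interzone (-3.50) and control growth plate (-5.39). Wfikkn2, a protein that binds growth differentiation factors, was at 1.55 and 0.93, with control interzone at 0.09 and the others between -3.55 and -2.75. In Srpx, Tmeff1 and Wfikkn2 the interzone control array was the highest of the other 4, and the growth plate control array was the lowest in Msrb3, Arhgap28, Tmeff1 and Wfikkn2.

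Membership depended on the scaling and background estimate. Of the 154 members, 34 were kept with normexp correction, 75 with quantile normalization, 59 on the authors' deposited ratio table and all 154 with the percentile over probes detected on all arrays. Both the deposited table and this percentile only shift each array by a constant, since the deposited ratio is processed signal over the array median. The percentile choice raised the median lead of all genes from -0.56 to -0.30 among the controls and from -0.42 to -0.36 among the mutants. The deposited table lowered it to -1.70 and -0.67. Keeping all 154, or 59 on the deposited table, is thus no independent check of membership. All 4 alternatives kept 19 members (12.3%). Among them were Ndst3, Pde4d, Prkce, Emcn, Srpx, Tshz2, Gstt1, Rwdd2b, Robo4, Sec22c, Msrb3, Trhde, Arnt, Wfikkn2, Tmeff1 and Kctd12; some of these were picked out after their values were seen. Of the 55 named members, 9 met the rule under every scaling, background, probe and outlier alternative, among them Ndst3, Pde4d, Prkce, Emcn, Srpx, Kctd12, Tmeff1 and Robo4. Some of these alternatives could hardly change the outcome. The percentile choice and kept outlier spots each kept all 55. The probe mean includes the brightest probe, and it cannot change a gene with no other measured probe, such as Prkce.

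**Figure D3:**
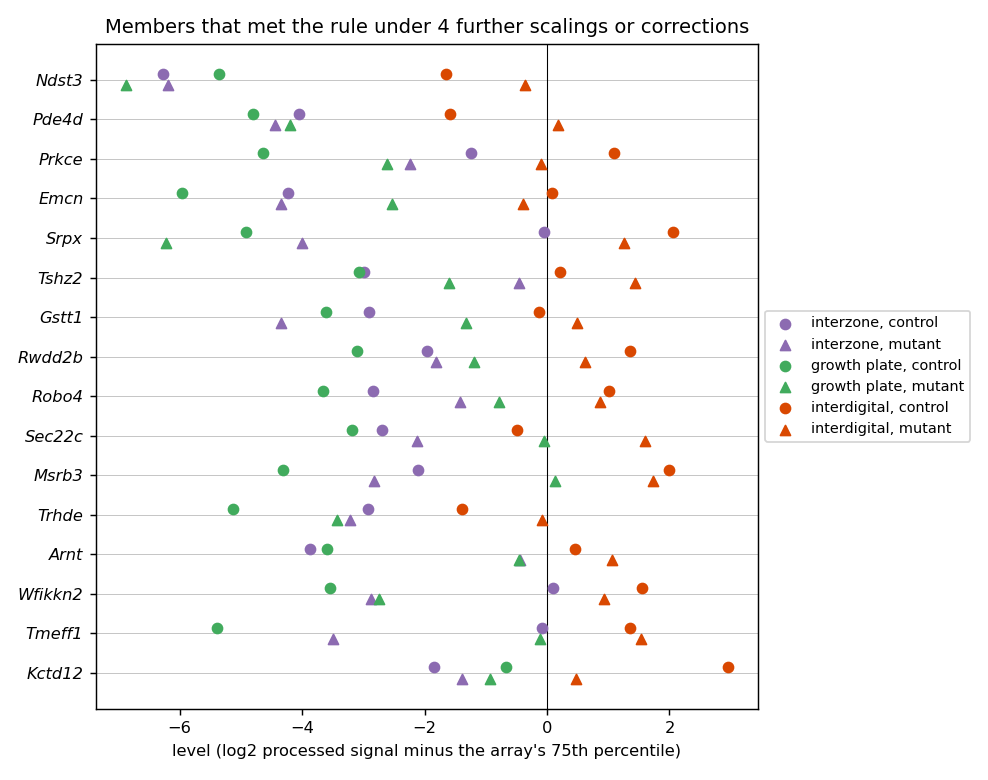
Log2 levels on the 6 arrays (horizontal axis, 0 is the array's 75th percentile) for members named in the text that met the rule under normexp correction, quantile normalization, the percentile over probes detected on all arrays and the deposited ratio table. Circles are controls and triangles mutants; both orange interdigital points lie to the right of the purple interzone and green growth plate points of their genotype, as the rule requires.

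Further probes of the members come from the same arrays and the same comparisons as the rule, so they too are given as a description. Of 58 members with another probe, 27 had one well above background on all 6 arrays. In 5 of the 27 (18.5%) such a probe met the rule, against 2.77% of 4721 genes with another measured probe. In 14 (51.9%) it was highest in interdigital tissue in both genotypes by some margin, against 16.1% of the 4721. Each by its own rule, the interzone set had 1 of 34 (2.94%) and the growth plate set 2 of 49 (4.08%). For those rules the share over all genes was not computed. The 5 were Tshz2, a teashirt zinc finger gene, Dmtn, which encodes the actin-bundling protein dematin, Kctd12, Neurl3, a ubiquitin ligase, and Lnpk, which shapes the endoplasmic reticulum; Tshz2, Dmtn, Neurl3 and Lnpk were picked out after their values were seen.

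Tshz2 was at 0.21 and 1.44 in interdigital tissue on its brightest probe, against -3.00 and -3.07 in control interzone and growth plate and -0.45 and -1.59 in the mutant ones. Its other measured probe gave -0.04 and 1.53, against -4.98, -4.63, -1.22 and -1.69, so both probes placed the 6 arrays with both interdigital arrays on top. The other probe of Kctd12 gave 2.30 and -0.25, against -2.41, -1.06, -1.38 and -2.00. For Gas7, Pard6b, Camk4 and Runx2, in contrast, the other probe had a lowest margin of -3.40, -3.00, -2.25 and -1.94. Of the members kept under all 4 scaling or background alternatives, Arnt, Sec22c and Tmeff1 had no other measured probe highest in interdigital tissue, with a best lowest margin of -1.14, -0.66 and -0.64. That of Pde4d was 0.66, of Msrb3 0.42 and of Wfikkn2 0.05.

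**Figure D4:**
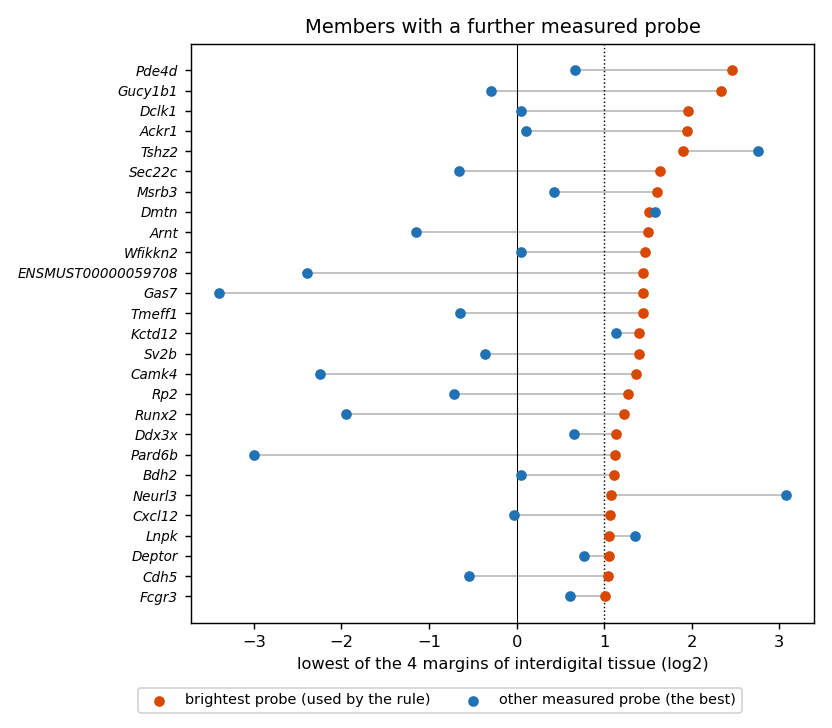
For the 27 members with a further measured probe, the lowest of the 4 margins of interdigital tissue (log2, horizontal axis) on the brightest probe, used by the rule (orange), and on the best other measured probe (blue). Blue points lie right of the dotted line at 1 for Tshz2, Dmtn, Kctd12, Neurl3 and Lnpk, and below 0 in others, as far as -3.40 for Gas7.

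The difference between mutant and control interdigital tissue was not part of the rule. It has no replicate, and it limits membership indirectly, since a gene had to lead in both genotypes. Of the 154 members, 31 (20.1%) were at least 2-fold higher in the mutant, against 8.71% of all measured genes, and 29 (18.8%) at least 2-fold lower, against 15%. The median difference of the members was -0.12, and that of all genes -0.17. This small shift turned positive with normexp correction, at 0.44 over the 38 genes that then met the rule. Scaling alone moved the median of all genes, from -0.17 to 0.00 on the deposited ratio table. In interzone 23 members (14.9%) were at least 2-fold higher, against 16.9% of all genes, and 30 (19.5%) lower, against 22%. In growth plate 49 (31.8%) were higher, against 21.8% of all genes, and 25 (16.2%) lower, against 30.5%. Interzone and growth plate levels entered the rule, so these shares are not independent of it.

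The members highest in the mutant by this difference were Krt9, Hr, Hlf, Gria1 and Asic1. Krt9, a keratin of palm and sole epidermis, was at -2.24 in control and 3.32 in mutant interdigital tissue, a difference of 5.56 (47.2-fold), with the other 4 arrays between -3.61 and -2.11. In the epidermis list, 20 of 29 measured genes were at least 2-fold higher in the mutant interdigital array and 0 lower, with a median difference of 3.90. The list's summed level was 34.1 in control and 232.0 in mutant interdigital tissue, and 309.1 and 296.4 in mutant interzone and growth plate, against 56.2 and 151.5 in the control ones. The list was thus also high in mutant interzone and growth plate, where Krt9 was not. All 32 listed genes on the array were well above background in the 3 mutant tissues, and the part of epidermal RNA in the Krt9 value was not tested.

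Hr, the corepressor gene hairless, was at -2.28 and 0.89, a difference of 3.18. It was higher in mutant interzone too, at -3.80 and -0.21, and in growth plate, at -4.86 and -2.09. Hlf, a transcription factor gene of the PAR bZIP family, differed by 2.73, the AMPA receptor gene Gria1 by 2.68 and the acid-sensing channel gene Asic1 by 2.67. Ndst3 differed by 1.28 and Pde4d by 1.78.

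The lowest in the mutant were Ebi3, Sst, Lrrc4b, Ccl9 and Kctd12. Ebi3, a subunit of the interleukin 27 family, was at -1.44 and -5.03, a difference of -3.59 (12.0-fold). Its mutant interdigital level lay within 0.1 of control interzone (-4.94) and control growth plate (-5.06), and it led among the mutants because the other mutant arrays were at -6.12 and -6.44. Sst, the precursor of somatostatin, was at -0.72 and -3.66, and Lrrc4b, a synaptic adhesion protein, at -0.80 and -3.57. Ccl9 differed by -2.57 and Kctd12 by -2.48.

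Among the endothelial members Emcn differed by -0.48, Cdh5 by -0.63 and Robo4 by -0.15, the last with a sign that changed between settings (-0.21 to 0.01). Among the macrophage members Mpeg1 differed by 0.66, Spi1 by 0.34, Folr2 by -0.64 and Fcgr3 by -0.30, and the sign for Fcgr3 changed as well (-0.38 to 0.44). Apart from Ccl9, these differences were all under 2-fold. Over the settings, 47 of the 55 named members kept the sign of this difference.

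**Figure D5:**
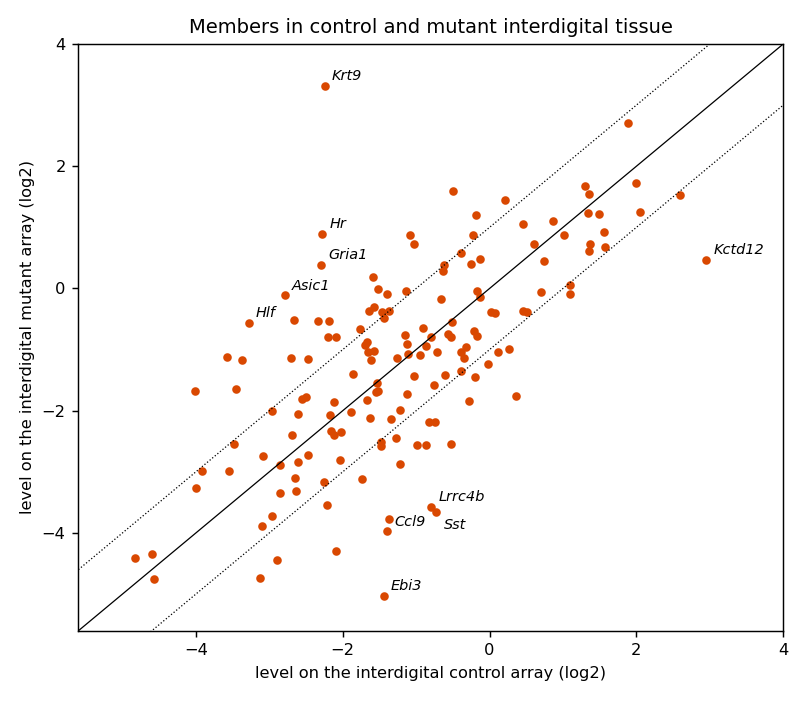
Log2 levels of the 154 members on the interdigital control array (horizontal axis) and the interdigital mutant array (vertical axis), with lines for equality (solid) and 2-fold differences (dotted). The 31 members above the upper dotted line include Krt9 and Hr, and the 29 below the lower one include Ebi3, Sst and Lrrc4b.

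RefSeq gave a name to 121 members, of which 118 are protein coding, and 33 array names had no match. Promoter windows of 300 bases, from 250 before to 50 after the start, were found for 93 members (109 windows) and compared with 21006 windows of 17250 genes. The median GC content was 56.0% in the members' windows and 56.7% in all, and the median number of CpG pairs 10 and 13. The Sp1 box GGGCGG was in 48.6% and 46.6%, the CCAAT box in 35.8% and 38.2%, the TATA box TATAAA in 8.26% and 12.5%, and CATCTG in 9.17% and 14.53%. The homeobox core TAATTA was in 1.83% and 4.53%, CAATAAA in 2.75% and 3.70%, TGANTCA, an AP-1 site, in 5.50% and 6.99%, and the Ets core CCGGAAG in 9.17% and 11.7%. GTCTAGAC, a Smad box, was in 0.917% and 0.229%, which is 1 of the 109 windows. Both strands were searched, and a match is a string of letters and not a binding site.

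Members were spread over the genome. Chromosome 11 held 12 of the named ones, chromosome 2 held 11 and chromosome 3 held 10. Neighbours within 200 kb of each other in the RefSeq table were Arnt and Ctsk, with a gap of 1.97 kb, Hr and Dmtn (28.6 kb), and Ccm2l and Pofut1 (160 kb). Arnt, the partner of hypoxia-inducible and dioxin receptor factors, was at 0.46 and 1.06, against -3.87, -3.59, -0.44 and -0.46, an order unlike that of Ctsk, which was lowest in mutant interzone and growth plate.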

How the data were processed

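Total RNA of laser-captured tissue was measured on 6 one-colour Agilent arrays. Per the file headers, Agilent Feature Extraction 9.5.1.1 gave the deposited spot intensity, of which the background-subtracted processed value was used. The table deposited by the authors holds a linear ratio, which matched processed signal divided by the array median, so each column's median is 1. Control and outlier spots were left out, spots of a probe averaged (41174 probes, 27916 gene names), and the brightest probe by mean over the 6 arrays kept. Values are log2 minus the 75th percentile. Names came from RefSeq's GRCm38.p6 table. The build of the probe coordinates is not named in the files used.

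Python 3.11.15 with pandas 2.3.3 and R 4.3.3 with limma 3.58.1 (normexp with offset 50, quantile normalization) were used. The selection code was run on simulated arrays with planted shifts and little noise, which checks the code and not the rule on these data. With 1 array per group no test was made, and the number of arrays limits the precision. Named genes are the 20 with the largest lowest margin, the 10 brightest, the 5 highest and 5 lowest by mutant minus control, list members, and 3 on each side of the threshold. Some genes that this rule names are not reported here. The members, the 43 lists (1571 entries, 1535 on the array) and this rule were chosen with earlier results of these data known. Alternatives changed background, scaling, probe, outlier, detection and margin choices.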

Additional observations from a re-analysis of the deposited data

Results flagged for a closer look

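In 4 named members the mutant minus control difference was at least 2-fold in interdigital tissue and at least 2-fold the opposite way in growth plate, on the log2 scale. Ndst3 differed by 1.28 in interdigital tissue and -1.52 in growth plate. Asic1 differed by 2.67 and -1.07. Prkce differed by -1.19 and 2.01, and Pcdh17 by -1.22 and 2.81. The signs held under each background, scaling, probe and outlier setting. Each value comes from 1 array per group, and the difference between tissues was not tested. On these pairs of arrays, slide and genotype cannot be told apart. The growth plate control array had the lowest median signal of all arrays.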

How the results depend on the processing

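No paired analysis was possible because each group had 1 array, and no replicate could be left out for the same reason. The count of 154 members became 38 with normexp correction, 84 with quantile normalization, 59 on the deposited ratio table, 542 with no detection filter, 524 with detection on the interdigital arrays only, 417 with a margin of 0.5 and 29 with a margin of 2. Without an array, chosen after seeing the data, it was 431 (interzone control), 248 (growth plate control), 360 (interzone mutant) and 371 (growth plate mutant), by construction, since fewer margins were required. Members past 2-fold upward and downward in mutant tissue numbered 10 and 3 with normexp, 7 and 16 on the deposited ratio table, 134 and 133 with no detection filter, 122 and 132 with detection on the interdigital arrays only, 65 and 65 at 0.5, and 4 and 8 at 2, and 13 were higher with quantile normalization. The median difference of -0.12 turned to 0.44 with normexp and to 0.0036 at 0.5, and was -0.39 with quantile normalization, -0.31 on the deposited ratio table and -0.49 at 2. Members in a list numbered 7 with normexp, 4 on the deposited ratio table, 28 with no detection filter and 28 with detection on the interdigital arrays only, 45 at 0.5 and 1 at 2. Endothelial members numbered 1 at a margin of 2. Macrophage members numbered 2 with normexp, 3 with quantile normalization, 0 on the deposited ratio table and 0 at 2. Beyond what these settings do by construction, the cause was not tested. The percentile over probes detected on all arrays (188 members), the probe mean (177) and kept outlier spots (155) left the counts within 1.5 times. Signal over background limits the 35 members that lay near the detection limit on another array.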

Other observations

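Probes that were not above background on every array were not counted in the comparison of probes. Among them, a further probe of Kcnip3 was well above background on 3 arrays, with levels of 0.00 and -0.55 in control and mutant interdigital tissue and between -9.68 and -5.29 on the others. A further probe of Jam2, above background on 4 arrays, gave -2.12 and -4.37, with the others between -8.72 and -5.82. Both genes were picked out after their values were seen, and values below background have only a bound. Such probes of other named members were mixed or went the other way. Their lowest margins were 1.85, -1.44 and -4.28 for Nxph1 and 1.33 and -0.63 for Scn2a. For Plekha8 and Il1r2 they were -1.40 and -1.01.

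Ackr1, the atypical chemokine receptor of venules and red cells, and Dclk1, a microtubule-associated kinase, were members outside the naming rule with lowest margins of 1.94 and 1.96. Their best other measured probes gave 0.11 and 0.05, so these were highest in interdigital tissue by small margins.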
